A study of Mus musculus with 4 samples.

Results

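The genes described are 10 chaperones and stress genes of the endoplasmic reticulum (ER): Hspa5, Hsp90b1, Calr, Pdia4, Pdia6, Dnajb9, Herpud1, Sdf2l1, Xbp1 and Manf. They were chosen by name, and all 10 had a row among the 9936 gene names of the deposited expression tables. RNA-Seq was performed on LF2 cells, a female mouse ESC line of strain 129/J, grown on feeder cells and passed off them before treatment. The cells received PBS or 50 µg/ml L-ascorbic acid (AA) together with DMSO or 10 µM GSK-J4, an inhibitor of JmjC histone demethylases, for 24 hr. The 4 conditions are named PBS+DMSO, PBS+GSK-J4, AA+DMSO and AA+GSK-J4. Each condition had 1 library, so no difference below has a replicate check and no p-value is given.

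Proteins that enter the secretory pathway fold in the ER with the help of chaperones and disulfide isomerases. When unfolded protein accumulates, the sensors PERK, IRE1 and ATF6 start the unfolded protein response (UPR). Active ATF6 and spliced XBP1 raise transcription of ER chaperones through the ER stress response element (ERSE), whereas PERK phosphorylates eIF2α and so favours translation of ATF4, which acts upstream of Ddit3 (CHOP). Other eIF2α kinases feed the same ATF4 arm without ER stress, so chaperone mRNA is a common companion readout when Ddit3 is measured. The question here was whether the chaperone genes moved along with Ddit3 under GSK-J4.

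Ddit3 was higher with GSK-J4 in both settings, and most of the ER chaperones were not. With DMSO, Ddit3 stood at 6.64 FPKM without AA and 7.45 with AA, and with GSK-J4 at 63.7 and 74.99. FPKM counts the fragments of a gene relative to its exon length and to all mapped fragments of the library, so levels of different genes can be ordered. On the scale used throughout, the log2 ratio of FPKM + 1, these are differences of 3.08 without AA and 3.17 with AA. Of the 10 ER genes, 8 were lower in both GSK-J4 libraries than in both DMSO libraries, an ordering seen in 50.3% of 9363 genes, although the sign for Sdf2l1 turned under other scalings and those for Calr, Pdia4 and Pdia6 turned against genes of like abundance. Manf, among the 8, was kept only through AA+DMSO (1.17 FPKM, beside a limit of 1 FPKM). Being kept through a DMSO library favours this ordering. The other 2, Herpud1 and Dnajb9, were higher in both GSK-J4 libraries, as were 26.9% of genes.

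Promoter elements for the UPR are shown first because ATF6 and XBP1 act on ER chaperone genes through them. Windows of 250 bases before the RefSeq start site (GRCm38.p6) were searched on both strands for exact matches in 9 of the 10 genes. ERSE was taken as CCAAT and CCACG separated by 9 bases, and ERSE-II as ATTGG and CCACG separated by 1 base. ERSE was found in Hspa5, Hsp90b1 (at 2 places), Calr and Pdia6, against 0.113% of 32851 promoters. ERSE-II was found in Herpud1 alone among the 9, against 0.0304% of promoters. The ERSE and ERSE-II sites are in capitals below, with the flanking bases in lower case, read 5′ to 3′ along the strand of the gene; in Calr and at the second Hsp90b1 place the element runs on the opposite strand. Hspa5 lies at chr2:34772020-34772048 (plus strand), the Hsp90b1 places at chr10:86705633-86705661 and chr10:86705528-86705556 (minus strand), Calr at chr8:84847045-84847123 (minus strand), Pdia6 at chr12:17266461-17266539 (plus strand) and Herpud1 at chr8:94386368-94386396 (plus strand).
Hspa5: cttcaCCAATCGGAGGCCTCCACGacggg
Hsp90b1, first place: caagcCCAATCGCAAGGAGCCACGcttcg
Hsp90b1, second place: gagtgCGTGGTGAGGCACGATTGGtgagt
Calr: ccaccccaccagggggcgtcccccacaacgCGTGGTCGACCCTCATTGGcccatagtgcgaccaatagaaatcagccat
Pdia6: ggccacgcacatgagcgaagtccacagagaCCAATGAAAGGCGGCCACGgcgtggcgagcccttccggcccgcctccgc
Herpud1: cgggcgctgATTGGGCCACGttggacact

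Counted back from the RefSeq start, with -1 the base just before it, the last base of the element was at -47 in Hspa5, -194 and -89 in Hsp90b1, -144 in Calr, -80 in Pdia6 and -42 in Herpud1. For Hspa5, Hsp90b1 and Herpud1, a longer annotated transcript begins upstream of the element. Herpud1 also held TGATGNAA, the core of the composite site bound by C/EBP and ATF factors such as ATF4, a pattern chosen after this promoter had been seen and found in 3.45% of promoters. It is in capitals below, on the opposite strand, within chr8:94386287-94386354 (plus strand), and is shown because no other of the 9 promoters had it.
Herpud1, upstream: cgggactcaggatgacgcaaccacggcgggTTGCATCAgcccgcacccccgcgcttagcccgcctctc

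The 4 remaining promoters, of Pdia4, Dnajb9, Sdf2l1 and Xbp1, held neither ERSE nor ERSE-II. The XBP1 element UPRE, searched as TGACGTGG, was in none of the 9 and in 0.563% of all promoters. The 2 parts of ERSE alone are common: CCAAT was in 8 of the 9 and 33.8% of all promoters, and CCACG in 7 of the 9 and 28.3%. Each ERSE or ERSE-II match contains both parts. A match describes letters in this window and does not show binding.

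**Figure D1:**
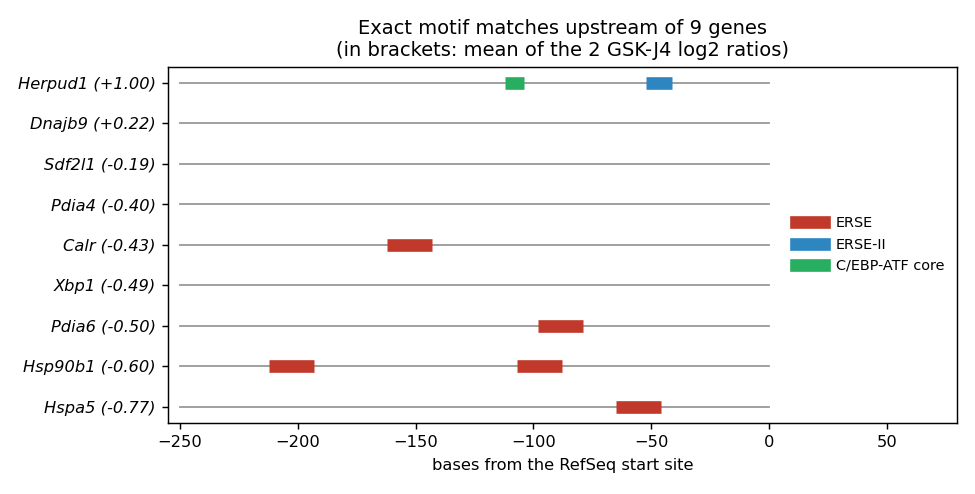
Exact matches to ERSE, ERSE-II and the C/EBP-ATF core (coloured blocks) over the 250 bases before the RefSeq start of 9 genes, with the mean of both GSK-J4 log2 ratios in brackets. Hspa5, Hsp90b1, Pdia6 and Calr, with ERSE, have negative means, as do Xbp1, Pdia4 and Sdf2l1 with none of the elements, and Herpud1, with ERSE-II and the C/EBP-ATF core, has the highest mean.

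Hspa5 encodes BiP, the ER Hsp70 chaperone that also holds the sensors inactive, and its locus is at chr2:34772098-34776586 in mm10. Its level was 249.0, 131.9, 207.6 and 134.6 FPKM, in the order PBS+DMSO, PBS+GSK-J4, AA+DMSO and AA+GSK-J4 kept for all sets of 4 values below. The log2 ratio for GSK-J4 was -0.91 without AA and -0.62 with AA. Without AA this was the lowest ratio of the ER genes kept.

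Hsp90b1 encodes GRP94, the ER member of the Hsp90 family. It stood at 283.6, 177.7, 238.3 and 165.2 FPKM. Its GSK-J4 ratios were -0.67 without AA and -0.53 with AA, next to those of Hspa5 on average.

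Calr encodes calreticulin, a calcium-binding chaperone of glycoproteins, and was the most abundant of the 10 in every library at 501.7, 363.5, 444.4 and 338.3 FPKM. Its GSK-J4 ratios were -0.46 and -0.39. The disulfide isomerase gene Pdia6 stood at 137.0, 95.2, 118.8 and 84.3 FPKM, with ratios of -0.52 and -0.49. The related Pdia4 stood at 104.3, 75.6, 89.9 and 71.1 FPKM, with ratios of -0.46 and -0.33. For these 5 abundant chaperones, both DMSO libraries were above both GSK-J4 libraries, with PBS+DMSO the highest.

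The co-chaperones were less abundant. Sdf2l1, a partner of ER J-domain proteins in the BiP cycle, stood at 27.05, 22.8, 23.8 and 21.5 FPKM. Its ratios of -0.24 and -0.14 changed sign when libraries were scaled to the same total (0.14 and 0.19) or to the same upper quartile (0.04 and 0.11), and with AA also when centred on the median gene (0.02). Dnajb9, the J-domain co-chaperone ERdj4 and a classical target of spliced XBP1, stood at 8.91, 9.59, 7.14 and 9.33 FPKM, with ratios of 0.10 and 0.34. These were 0.35 and 0.57 at the same upper quartile and 0.45 and 0.64 at the same total, so Dnajb9 was above 0 under each scaling.

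Herpud1 encodes HERP, a ubiquitin-like membrane protein of ER-associated degradation. Its locus is at chr8:94386371-94395363 in mm10. With DMSO it stood at 10.3 FPKM without AA and 10.5 with AA, and with GSK-J4 at 21.7 and 21.8. The libraries with the same inhibitor status were nearly equal, and FPKM was 2.11-fold higher with GSK-J4 without AA and 2.07-fold higher with AA. The log2 ratios were 1.01 and 0.98.

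Xbp1 encodes the transcription factor whose mRNA is spliced by IRE1. It stood at 17.6, 11.6, 16.4 and 11.9 FPKM, with ratios of -0.56 and -0.43. Xbp1 had a single coding sequence group in the tables, so spliced and unspliced mRNA could not be read separately. Its locus in the tables also covers Ccdc117, as that of Pdia6 covers Atp6v1c2 and that of Ddit3 covers Mars. The library kit named in the labels is a DNA kit, which does not mark strand, and how reads from overlapping genes were shared out is not given in the sources used here.

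Manf, a secreted ER protein of the stress response, was close to the limit of 1 FPKM used for a gene to be kept. It stood at 0.860, 0.446, 1.17 and 0.444 FPKM, so it was kept in the comparisons that use AA+DMSO and in neither of the others. The GSK-J4 ratio with AA was -0.59, close to that of Hspa5, and it depended on the pseudocount, reaching -1.22 with a pseudocount of 0.1, below Hspa5 at -0.62. Its deposited locus of 70.1 kb also covers Dcaf1 and Rbm15b, and the value may not describe Manf alone.

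**Figure D2:**
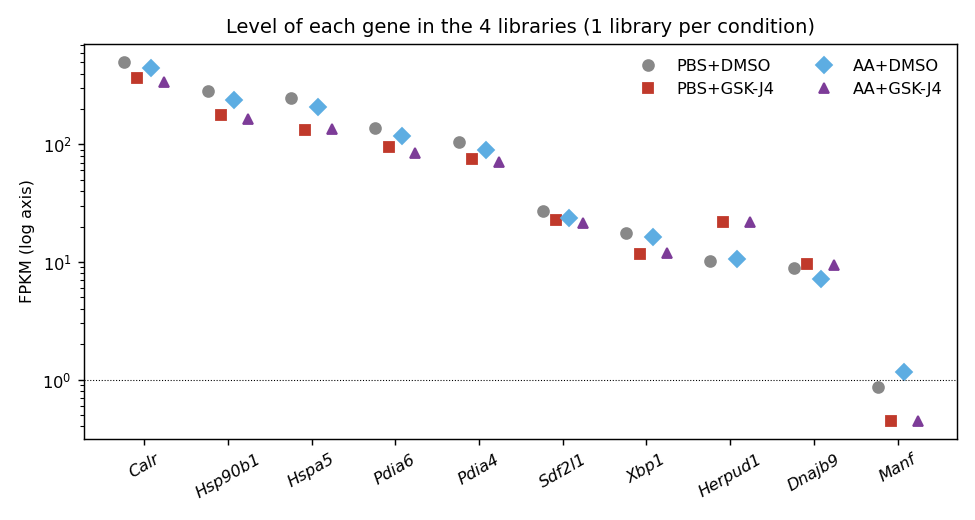
FPKM of each of the 10 genes (log axis) in the 4 libraries, 1 point per library, with the dotted line at 1 FPKM. The 5 abundant chaperones lie between 71.1 and 501.7 FPKM with both GSK-J4 points lowest, and Herpud1 shows both GSK-J4 points above both DMSO points.

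In order of level in PBS+DMSO, the genes ran Calr, Hsp90b1, Hspa5, Pdia6, Pdia4, Sdf2l1, Xbp1, Herpud1, Dnajb9 and Manf. With 1 library per condition, no spread is available to tell neighbours in this order apart. In both GSK-J4 libraries Hspa5 was the third and Herpud1 was above Xbp1.

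At a 2-fold threshold, 1 of the 9 ER genes kept was higher with GSK-J4 without AA (Herpud1), where 4.96% of 9196 genes were, and 0 were lower, where 3.5% were. With AA, 0 of 10 were higher, with Herpud1 just short of the threshold on the log2 scale, and 0 were lower, against 4.13% and 3.38% of 9139 genes. These shares are close to the background, and the counts say little about the ER genes. The median log2 ratio of the ER genes was -0.46 without AA and -0.41 with AA, beside -0.17 and -0.16 over all genes kept. Scaled to the same total, the ER medians were -0.08 and -0.09 and those of all genes 0.16 and 0.14.

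**Figure D3:**
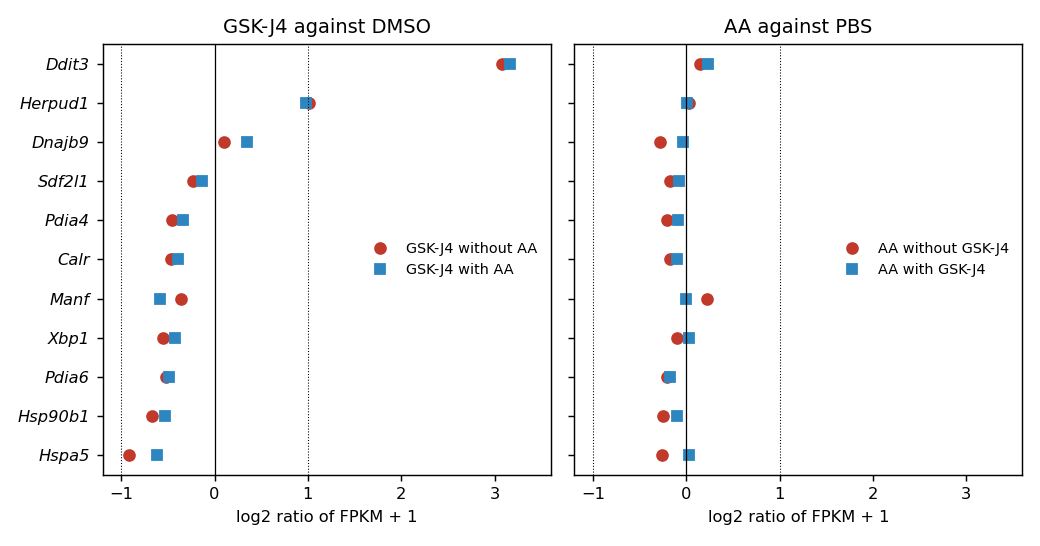
Log2 ratios of FPKM + 1 for the 10 ER genes and Ddit3, GSK-J4 against DMSO (left) and AA against PBS (right), 1 ratio per pair of libraries, with dotted lines at a 2-fold difference. Ddit3 lies beyond 3 in the left panel, Herpud1 lies near 1 and the other ER genes lie between -0.91 and 0.34; Manf is drawn without AA although both PBS libraries were under 1 FPKM. In the right panel every ER gene lies between -0.28 and 0.22.

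The level of a gene moved with its GSK-J4 ratio across the whole table. When genes were divided into 10 equal expression bins by mean log2 level, the lowest bin had a median ratio of 0.30 without AA and 0.26 with AA, and the highest bin had -0.59 and -0.53. Hspa5, Hsp90b1, Calr, Pdia4 and Pdia6 all belong to the highest bin, where 90.4% of genes without AA and 89.1% with AA had a ratio below 0. Without AA, the 10th and 90th percentiles of that bin were -1.01 and -0.01, with AA they were -0.95 and 0.03, and all 5 chaperones lay inside these limits.

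Measured against the median of its own bin, a choice made after the data were seen, Hspa5 was at -0.32 without AA and -0.09 with AA. Hsp90b1 was at -0.08 and 0.01, Pdia6 at 0.07 and 0.05, Calr at 0.12 and 0.14, and Pdia4 at 0.13 and 0.20. On this scale only Hspa5 among the 5 was lower in both settings. Xbp1 remained below its bin, at -0.29 and -0.18. Herpud1 was 1.28 and 1.23 above the median of its bin, and its ratios of 1.01 and 0.98 were above the bin's 90th percentiles of 0.37 and 0.33.

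On this scale the median of the ER genes became 0.12 without AA and 0.09 with AA. The summed FPKM of all genes was 360621, 275575, 342327 and 271205, lower in both GSK-J4 libraries. The 10 ER genes made up 0.372%, 0.330%, 0.338% and 0.317% of these sums. The part of library composition and of removal of duplicate reads in the lower chaperone values was not tested.

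**Figure D4:**
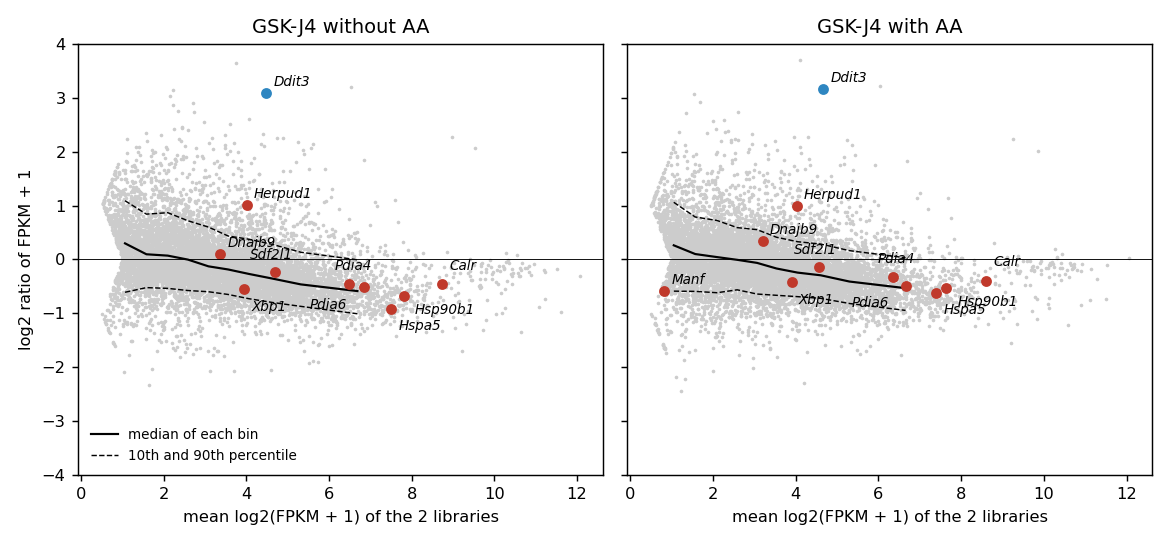
Log2 ratio of FPKM + 1 (GSK-J4 against DMSO) against mean log2 level for every gene kept (grey), the 10 ER genes where kept (red) and Ddit3 (blue), without AA (left) and with AA (right). Solid and dashed lines give the median and the 10th and 90th percentiles of each bin: the 5 abundant chaperones follow the falling median, and Herpud1 and Ddit3 lie above the upper dashed line.

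The comparison between AA and PBS used the same 4 libraries, so its values share libraries with those above. It also sets values across 2 tables, and whether these were scaled together is not given in the sources used here. At 2-fold, 0 of 10 ER genes were higher and 0 lower with AA without GSK-J4, beside 0.565% and 0.735% of 8843 genes. In the presence of GSK-J4, 0 of 9 were higher and 0 lower, beside 0.512% and 0.599% of 9180 genes.

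Without GSK-J4, the ER genes had a median AA ratio of -0.19, beside -0.05 over all genes. Of the 10, 8 were below 0, as were 62.4% of 8843 genes and 80.2% of the highest expression bin. The ratios were -0.26 for Hspa5, -0.25 for Hsp90b1, -0.21 for Pdia4, -0.20 for Pdia6 and -0.17 for Calr. The first 4 of these were below the 10th percentile of the highest bin, -0.19. Dnajb9 was at -0.28, Sdf2l1 at -0.18 and Xbp1 at -0.10, whereas Herpud1 was at 0.03 and the low Manf at 0.22. The same 8 genes were below 0 when libraries were scaled to the same total, to the same upper quartile, or centred on the median gene or within expression bins. In other lists, described below, values as deposited were below 0 for 26 of 33 other ER chaperones and folding enzymes. The same held for 31 of 34 translocon, glycosylation and ER export genes, but for 7 of 16 genes of the PERK, ATF4 and CHOP arm. Unlike the 8 genes, these counts depended on the scaling. In the same order of lists, 18, 21 and 5 genes were below 0 when scaled to the same total. Centred on the median gene, 21, 24 and 6 were.

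With GSK-J4 present, the median AA ratio was -0.08 over the 9 genes kept, beside -0.02 over all genes. Of the 9, 6 were below 0, as were 55.4% of 9180 genes. Pdia6 was lowest at -0.17, Hspa5 was at 0.03 and Herpud1 at 0.00. For Hspa5, AA+DMSO therefore lay between PBS+DMSO and the GSK-J4 pair, which were near each other.

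The other genes of the ER and of the UPR were read from lists of known members. Of 33 other ER chaperones and folding enzymes, 15 were above 0 and 18 below with GSK-J4 without AA, with a median of -0.05 and 0 past 2-fold on the scale of FPKM + 1. With AA, 17 were above and 16 below, with a median of 0.02, and the median without AA turned positive when centred on the median gene (0.13), scaled to the same upper quartile (0.23) or to the same total (0.32). The highest were Fkbp10, a prolyl isomerase of collagen folding (3.25, 7.47, 3.01 and 5.09 FPKM), and Qsox1, a sulfhydryl oxidase (3.28, 7.04, 3.07 and 6.91 FPKM). In plain FPKM without AA these were 2.30-fold and 2.15-fold higher, past the threshold that FPKM + 1 did not reach. The lowest were Rcn1, a calcium-binding reticulocalbin, and Prdx4, an ER peroxiredoxin, with ratios of -0.70 and -0.69 without AA.

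In ER-associated degradation, where HERP acts, 10 of 23 genes were above 0 without AA and 14 of 24 with AA, with medians of -0.03 and 0.09 and 0 past 2-fold, the first turning to 0.14, 0.22 and 0.32 under the same 3 scalings. Sel1l, the adaptor of the HRD1 ligase complex, was highest on average, at 9.42, 12.5, 8.69 and 14.2 FPKM. Its ratios of 0.38 and 0.65 were below those of Herpud1. Vcp, the ATPase that extracts substrates, was lowest at -0.94 and -0.79, and its cofactor Nploc4 was at -0.46 and -0.39.

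Translocon, glycosylation and ER export genes were mostly lower, with 30 of 34 below 0 without AA and 29 of 34 with AA, and medians of -0.31 and -0.22, which turned to 0.07 and 0.11 when scaled to the same total, to 0.12 and 0.19 within expression bins and, with AA, to 0.03 at the same upper quartile. Over all genes, 63% without AA and 62.2% with AA were below 0. Of these 34 genes, 0 passed 2-fold in either setting on the scale of FPKM + 1. Kdelr3, a receptor that returns ER residents from the Golgi, was highest, at 4.27 and 8.86 FPKM in the PBS libraries and 4.26 and 9.01 in the AA libraries, or 2.07-fold and 2.12-fold higher in plain FPKM. Arfgap3, a Golgi coat regulator, had ratios of 0.50 and 0.66, whereas Sec13 of the COPII coat was at -0.64 and -0.55 and Srp19 of the signal recognition particle at -0.58 and -0.63.

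Of 12 sensors and activating proteases listed, 9 had a row, and Atf6 was not among these 9. Only Creb3l1 was past 2-fold, and it was higher in both settings. Over all genes, 4.96% were at least 2-fold higher without AA and 4.13% with AA. Creb3l1 encodes OASIS, a membrane-bound transcription factor cleaved like ATF6, and it stood at 3.12 and 18.6 FPKM in the PBS libraries and at 2.62 and 13.5 in the AA libraries. Its ratios were 2.25 and 1.998. Ern1, which encodes IRE1α, was at 0.13 and 0.31, and Eif2ak3, which encodes PERK, at -0.06 and 0.38. Atf6b was at -0.52 and -0.29, and the site-1 protease gene Mbtps1 at -0.26 and -0.59, whereas the site-2 protease gene Mbtps2 was at 0.17 and 0.67. The membrane-bound factors Creb3, Creb3l2 and Creb3l4 ranged from -0.08 to 0.27.

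The PERK, ATF4 and CHOP arm stood apart in its values. Of 17 genes, 14 without AA and 15 with AA were above 0, with medians of 0.69 and 0.77, and 8 were at least 2-fold higher in each setting, beside 4.96% and 4.13% of all genes. Under every scaling tried, the medians of this arm were at least as high. The 8 include Ddit3, whose rise was known when the genes were chosen, and besides it were Nupr1 (2.81 to 46.9 FPKM without AA, 3.73 to 60.7 with AA), Ddit4 (29.4 to 279.8 and 20.7 to 200.6), Atf3, Trib3, Chac1, Asns and Sesn2. The whole list was chosen with earlier results of these data known, so its count is not independent of them. Atf3 (0.55 to 11.7 FPKM without AA, 0.96 to 10.8 with AA) was kept only through the GSK-J4 libraries, which favours a higher ratio. Asns, the asparagine synthetase gene of the amino acid response, had ratios of 1.03 and 1.12, and Sesn2 had 1.06 and 1.08, the same order of size as Herpud1.

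Atf4 itself stood at 159.2, 256.9, 163.5 and 278.6 FPKM, with ratios of 0.69 and 0.77. Ppp1r15a, the eIF2α phosphatase subunit GADD34, was at 0.41 and 0.48, Cebpg at 0.39 and 0.64, and the oxidase gene Ero1l at 0.45 and 0.71. Dnajc3, the PERK inhibitor and BiP co-chaperone with an ERSE in its promoter, was at 0.07 and 0.37. Eif2ak4, the amino acid sensor GCN2, was at 0.01 and 0.03 and Ppp1r15b at -0.13 and 0.07. Eif2s1, which encodes eIF2α, was at -0.93 and -0.77, and the adaptor Nck1 at -0.61 and -0.46.

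Transcripts known to be cut by IRE1 gave a small list, with 5 genes kept and medians of 0.35 and 0.24. Bloc1s1, the best known of them, was at -0.49 and -0.57, beside its bin's medians of -0.46 and -0.41. Sparc was at -0.02 and 0.04, Ergic3 at 0.37 and 0.30 and Galnt10 at 0.35 and 0.42.

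**Figure D5:**
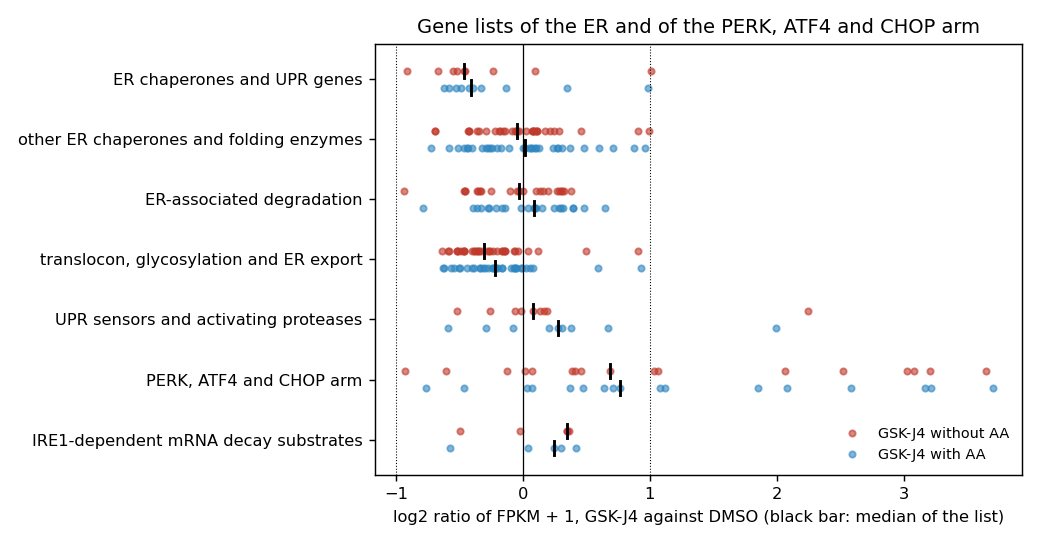
Log2 ratios of FPKM + 1, GSK-J4 against DMSO, of each gene kept in the 10 ER genes and 6 lists of the ER and the UPR, without AA (red) and with AA (blue), with black bars at the medians. The PERK, ATF4 and CHOP arm has medians of 0.69 and 0.77, and the 10 ER genes have medians of -0.46 and -0.41.

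Promoter sequence was also used to choose genes without their values. Outside the 10 ER genes, 10 genes with an ERSE were kept without AA, of which 6 were above 0 and 4 below, with a median of 0.09. Of 7062 genes kept with any promoter in the table, 2607 were above 0. With AA, 8 of 11 ERSE genes were above 0, with a median of 0.09. Calr4, above 0 in both settings, was kept only through the GSK-J4 libraries, which favours a ratio above 0. It stood at 0.19 and 1.08 FPKM in the PBS libraries and at 0.15 and 1.29 in the AA libraries. Among them Canx (calnexin) was at 0.10 and 0.27, Syvn1 (HRD1) at 0.10 and 0.09, and Creld2 at -0.43 and -0.33. The 2 genes at least 2-fold lower without AA were Hnrnpa3, an RNA-binding protein, at -1.15 and -0.87 and Zfp57, a zinc finger protein of imprinting, at -1.05 and -0.99. With AA, 0 of the 11 were. Over genes with any promoter, 244 of 7062 were at least 2-fold lower without AA. Of the 5 other genes kept with an ERSE-II, Nucb1, a Golgi calcium-binding protein, was highest at 0.57 and 0.55, and 3 were below 0. TGATGNAA was present in Asns, Atf3, Chac1 and Nupr1 among 19 promoters of the PERK arm. Over all 151 genes kept with TGATGNAA without AA, Herpud1 included, the median was -0.02, beside -0.17 for 7062 genes kept with any promoter in the table. Of the 151, 17 were at least 2-fold higher, beside 352 of the 7062. Without Herpud1, 16 of 150 were. The 17 include Asns, Atf3, Chac1 and Nupr1, already counted in the PERK arm. Atf3, Ecm1, Hrk, Inhbe and Vldlr were under 1 FPKM in PBS+DMSO and were kept only through PBS+GSK-J4, which favours a higher ratio. The same filter applied to the 7062 genes. The pattern had been chosen after the Herpud1 promoter was seen. For 70 genes kept with a UPRE the median without AA was -0.06. The longer amino acid response pattern TGATGNAAT was in 0.816% of all promoters and in Nupr1 of the PERK arm.

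The genes whose profile over the 4 libraries was nearest to Herpud1 were Baiap2, Cpped1 and Sesn2, at Euclidean distances of 0.03, 0.04 and 0.07 in mean-centred log2(FPKM + 1), among 5429 genes with at least 5 FPKM in every library. The nearest to Hspa5 were Ncl, Cpsf7 and Xpo1, at 0.02, 0.03 and 0.04. These distances rest on 4 values per gene.

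Cell identity genes were measured beside the ER genes. Of 17 embryonic stem cell markers, 16 were below 0 with GSK-J4 without AA, beside 63% of all genes. The marker median was -0.75, or -0.37 when scaled to the same total. Centred within expression bins, 11 of the 17 markers were below 0 and their median was -0.17. Their summed level was 2834, 1692, 2618 and 1567 FPKM. Pou5f1 alone stood at 866.6, 510.2, 799.9 and 479.7 FPKM, and Tdgf1 and Sox2 were the next most abundant. Of 10 feeder fibroblast markers kept, 8 were above 0 with GSK-J4 in both settings, with medians of 0.52 and 0.50 (0.82 and 0.77 at the same total). In each setting 2 were below 0, the lowest at -0.75 without AA and -0.65 with AA. Over all genes, 63% and 62.2% were below 0. Centred within expression bins, the feeder medians were 0.48 and 0.43. The feeder markers summed to 83.0, 97.8, 74.5 and 87.5 FPKM over these 10 of 16 genes, with Vim, Tagln and Acta2 the most abundant and no row for Col3a1, Postn, Lum, Dcn, Pdgfrb or Fbn1. Primitive and parietal endoderm markers summed to 170.7, 162.1, 173.5 and 168.7 FPKM over 9 of 20 genes, led by Sparc, Lamc1 and Col4a1, with no row for Gata4, Gata6 or Sox17. In bulk RNA, fewer cells of a type and less RNA per cell cannot be told apart, and the part of these markers in the ER values was not tested.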

How the data were processed

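RNA-Seq of 4 libraries, 1 per condition, was used. The authors removed duplicate reads from single-end data, ran TopHat2 (named with mm10 in the submitters' processing notes), Cufflinks2, CummeRbund and Genome Explorer through Maser, and deposited FPKM per coding sequence group in 2 tables. Headers call these columns log10, but their values are linear. Depth and scaling between libraries are not given in the sources used here. The authors' fold changes, p-values and q-values in the tables were not used.

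FPKM was summed per gene (11033 rows per table, 9936 gene names). The 157 genes with a failed estimate were left out, leaving 9779. Log2 ratios used a pseudocount of 1 and genes with at least 1 FPKM in either library of a comparison, so they understate changes of low genes. No test was run. The ER genes and all lists were chosen with earlier results of these data known. All 10 ER genes are named. In each list the 2 highest and 2 lowest mean GSK-J4 ratios, genes past 2-fold in both settings, and all genes kept in the lists of sensors and of the PERK arm are named, and for marker lists the 3 most abundant genes. One gene that the rule names is not reported here. Genes singled out by promoter motif were named after their values were seen. Promoters came from the RefSeq table (GRCm38.p6), which matched 9 of 10 genes; overlaps used GENCODE and the deposited loci. Protein C-termini were not analysed here. Counting was tested on simulated data. Python 3.11.15, pandas 2.3.3, numpy 2.4.6 and matplotlib 3.10.9 were used.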

Additional observations from a re-analysis of the deposited data

Results flagged for a closer look

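Some of the genes named had ratios of opposite sign under the same contrast in the 2 settings, each from 1 pair of libraries, and none of these differences was tested. With AA, Hspa5 was at -0.26 without GSK-J4 and 0.03 with it, a difference of 0.29 on the log2 scale. Xbp1 was at -0.10 and 0.03, a difference of 0.13. With GSK-J4, Eif2ak3 was at -0.06 without AA and 0.38 with AA, a difference of 0.44. Ppp1r15b was at -0.13 and 0.07, a difference of 0.20, and Sparc at -0.02 and 0.04, a difference of 0.060. Over all ER and UPR lists, 18 of 128 genes kept in both GSK-J4 comparisons had opposite signs. The share over all genes was not computed, so this count is not a result about the ER genes. Some of the 18 were near 0 in both settings, such as Sdf2 at -0.03 and 0.02. Of the 18, the disulfide isomerase gene Pdia5, picked out after its values were seen, differed most. Pdia5 stood at 4.18 FPKM in PBS+DMSO against 3.56 in PBS+GSK-J4, a log2 ratio of -0.18. With AA it stood at 1.73 in AA+DMSO against 4.0 in AA+GSK-J4, a log2 ratio of 0.87.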

How the results depend on the processing

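The alternatives were other pseudocounts, filters, scalings and thresholds, and the use of the highest coding sequence group; centring within expression bins was chosen after seeing the data. Of 124 recomputed medians and counts of the ER genes, 113 were taken as unchanged, meaning for a count a change of at most 1.5 times and for a median a change of at most 1.5-fold in the unlogged ratio. Within that tolerance the GSK-J4 medians without and with AA moved from -0.46 and -0.41 to -0.29 and -0.25 when centred on the median gene and -0.18 and -0.16 at the same upper quartile. The change of sign of these medians within expression bins, given below, is also counted as unchanged. So are the AA counts, which were 0 under every setting. With GSK-J4 without AA, the count of genes at least 2-fold higher became 0 with a pseudocount of 5 and 0 at 4-fold, and the count lower became 2 at 1.5-fold. With GSK-J4 and AA, the count higher became 1 with a pseudocount of 0.1, when centred on the median gene, divided by the upper quartile, scaled to the same total, centred within expression bins, or at 1.5-fold. The count lower became 1 with a pseudocount of 0.1 and 2 at 1.5-fold. Scaling to the same total moved the median of all genes to 0.16 without AA and 0.14 with AA and that of the ER genes to -0.08 and -0.09. Centring within expression bins turned the ER medians to 0.12 and 0.09. No paired analysis was possible because the labels give no replicate numbers and each condition had 1 library. An additive fit of GSK-J4 and AA over the 4 libraries was not run. Without counts or replicates, neither counting error nor the spread between cultures is known.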
